A study of Mus musculus with 8 samples.

Results

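The antiviral effector genes induced by type I interferon were followed in preadipocytes of mice labelled as lacking Tet3 there and of controls. The effector genes were 46 genes chosen by name, without IRFs, GBPs, Schlafens or antigen presentation genes, and all 46 had a row among the 35976 genes of the RNA count table. Both groups were male mice on a high fat diet for 6 weeks, and both gave PDGFRa+ cells of inguinal white fat from which cells bearing CD45, CD31 or TER119 had been gated away. The 3 control libraries carried the genotype Tet3 f/f (WT below) and the other 3 the genotype Pdgfra-Tet3 KO (KO below). Tet3 encodes an enzyme that oxidises methylated cytosine in DNA. The labels state neither strain, age nor the driver of the deletion, nor whether a library was 1 animal or a pool. The spread that p-values rest on is therefore that between libraries, and it may be technical.

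Type I interferons bind a receptor that, through JAK kinases, activates transcription factors of the STAT family. Together with IRF9 these form a complex that binds a short repeat, the interferon-stimulated response element, in the promoters of target genes. The products of those genes detect foreign RNA or DNA, cut or sequester viral RNA, deplete nucleotides, block membrane fusion, or attach the ubiquitin-like protein ISG15 to other proteins. Many are also expressed at a low level without infection, and stromal cells such as fat precursors respond to interferon.

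The response element was looked for first. The choice of genes read no sequence, but it took genes known to be induced by interferon, and the element lies in promoters of such genes. A share above that of all genes was therefore built into the choice. Its core was searched as GAAANNGAA, with N for any base, on both strands, so a match on the other strand reads TTCNNTTTC. Copies may overlap. RefSeq windows of build GRCm38.p6, from 250 bases before to 50 after the annotated start, were held for 33 of the 46 genes. Of these 33 genes, 19 (57.6%) had at least 1 match, beside 9.76% of the 27025 genes with a window. The core with 1 more A at its end was found in 16 of the 33 (48.5%) and in 3.99% of all genes. A list of other interferon-induced genes, used again below, had 44 genes with a window. Of these, 26 (59.1%) had a match and 54.5% had the longer core, so matches were not particular to the effector genes. A match is a run of letters and not a shown binding site.

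The following stretches end just before the start, or lie upstream of it, and are written in the direction of the gene with matches in capitals. Isg15 (chr4:156200819-156200938, minus strand), Ifit1 (chr19:34640759-34640888, plus strand) and Rsad2 (chr12:26456453-26456592, minus strand) show how matches are arranged in genes that rose in KO. Samhd1 (chr2:157135097-157135226, minus strand) is shown because it rose without a match in its window.
Isg15: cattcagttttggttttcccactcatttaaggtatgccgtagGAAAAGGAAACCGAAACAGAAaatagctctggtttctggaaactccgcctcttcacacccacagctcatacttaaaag
Ifit1: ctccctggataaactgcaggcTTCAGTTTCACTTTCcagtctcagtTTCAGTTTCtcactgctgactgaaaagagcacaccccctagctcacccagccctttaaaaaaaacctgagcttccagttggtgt
Rsad2: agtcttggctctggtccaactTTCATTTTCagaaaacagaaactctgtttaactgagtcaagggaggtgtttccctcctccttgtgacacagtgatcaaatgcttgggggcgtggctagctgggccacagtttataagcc
Samhd1: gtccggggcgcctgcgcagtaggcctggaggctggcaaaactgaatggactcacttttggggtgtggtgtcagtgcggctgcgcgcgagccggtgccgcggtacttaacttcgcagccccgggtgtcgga

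In Isg15 3 copies overlapped in 1 run, the first beginning 78 bases before the start. In Ifit1 2 overlapping copies and 1 separate copy lay on the other strand, beginning 109, 103 and 84 bases before the start. Rsad2 had 1 copy, on the other strand, from 119 to 111 bases before the start. Of the 9 genes with a window that rose in KO, 7 had a match, and the exceptions were Samhd1 and Lgals3bp. Matches were also present in 9 of the 19 tested genes that did not pass and in 3 of the 5 with too few counts to test. These are counts of letters in small sets and were not tested. The next pair shows how alike stretches of neighbouring members can be. Over 80 bases upstream, Ifit3 (chr19:34583364-34583443) and Ifit3b (chr19:34607760-34607839), both on the plus strand, were identical at 80 of 80 bases. The stretches were picked to line up, at different distances from the start of each gene. Their identity is therefore no measure of the whole windows, which differ nearer the start.
Ifit3: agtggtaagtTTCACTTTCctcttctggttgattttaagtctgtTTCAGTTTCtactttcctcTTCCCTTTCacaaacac
Ifit3b: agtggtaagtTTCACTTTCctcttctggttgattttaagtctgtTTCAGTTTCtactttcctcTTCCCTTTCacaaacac

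**Figure D1:**
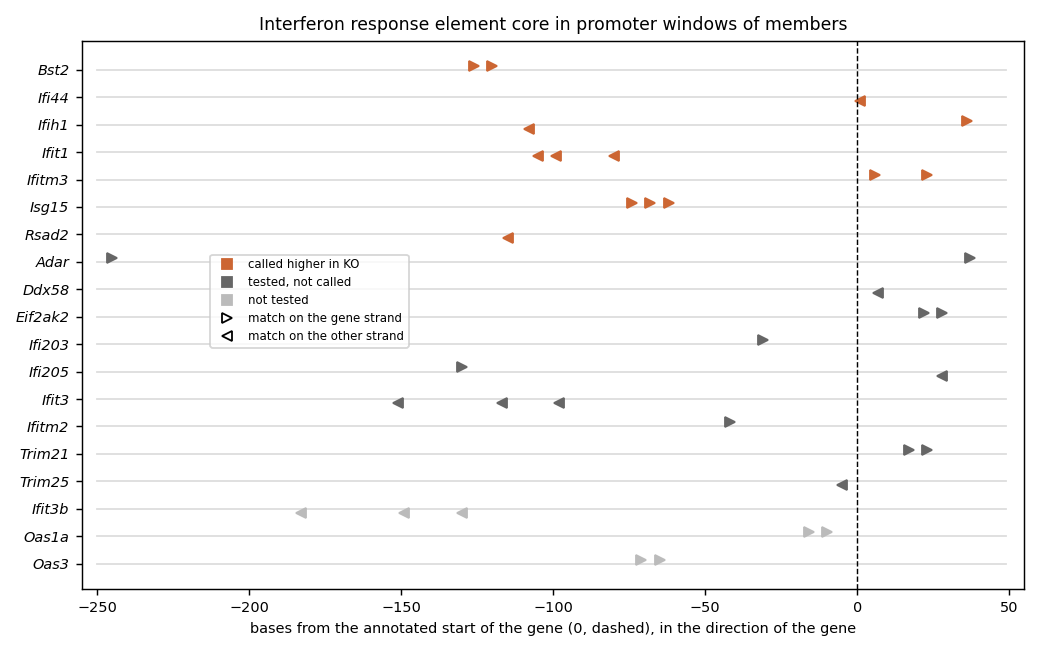
Each row is the promoter window of 1 of the 19 genes with a match, and the horizontal axis gives bases from the annotated start in the direction of the gene. Triangles are matches of the core, pointing right on the gene's strand and left on the other, coloured by the result of KO against WT. Matches lay on both sides of the start, and in Ifi44, Ifitm3, Ddx58, Eif2ak2 and Trim21 every match touched or followed it.

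The libraries held between 1831218 and 2374978 counts. At this depth 3 counts, taken as the floor for a gene at 0, equalled 1.27 to 1.65 CPM (counts scaled to an effective library size of 1000000), and floors and counting intervals cover counting error only. Tet3 itself, the targeted gene, held 93, 127 and 104 counts in the WT libraries against 76, 87 and 79 counts in KO. Its level was 49.9 ± 5.01 CPM in WT and 42.3 ± 2.91 in KO (SD, n = 3 each), and edgeR's quasi-likelihood test did not separate the groups (log2 fold change -0.24 ± 0.24 (SE), approximate 95% interval -0.73 to 0.25, adjusted p = 0.71). Counts per gene do not show which exons were read, so they do not test the deletion. All 12 preadipocyte markers were tested, and by edgeR 3 were higher in KO, 3 lower and 6 not called. Of all genes tested, 1.82% were called higher and 1.77% lower. Cd34, Ly6a and Col1a1 rose by 0.54 ± 0.11, 0.37 ± 0.09 and 0.44 ± 0.10 on the log2 scale, while Pdgfra, Lum and Pdgfrb fell by 0.52 ± 0.12, 0.40 ± 0.10 and 0.91 ± 0.14 (adjusted p from 9.48e-05 to 0.0177). Of the 6 not called, Dlk1, Pparg, Col3a1 and Itgb1 had every KO library below every WT library, as in 10.3% of all genes. Dcn and Zfp423 overlapped. Dlk1 had the largest fitted change of the 12, -2.84 ± 0.84 (adjusted p = 0.0544, edgeR), at 0 to 29 counts per library. The part of this shift in the results on the effector genes was not tested. Ptprc, which encodes CD45, was at 0 in all 6 libraries, and the CD31 gene Pecam1 had 0 to 6 counts. A count of 0 is weak evidence of absence here, because Gapdh, abundant in most cells, had 0 or 1 count in each library.

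After the filter on low counts 39 of the 46 effector genes could be tested and 7 could not. By edgeR's quasi-likelihood test, adjusted over all 9943 genes tested, 12 of the 39 were higher in KO (30.8%) and 0 were lower. Over all genes tested 1.82% were called higher, 1.77% lower and 3.59% in either direction. The effector genes were chosen with earlier results of these data known, so a share above these may be built into the choice. At an unadjusted p under 0.05 by edgeR, 26 of the 39 were higher and 0 lower, beside 758 higher and 779 lower of the 9943 genes. DESeq2 and limma-voom also called 0 effector genes lower. The log2 fold change was above 0 in 36 of the 39 and in 49.7% of all genes tested. Its median was 0.70, beside -0.0024 over all genes. In 25 of the 39 every KO library lay above every WT library, as in 10.1% of all genes, and in 1 every KO library lay below, as in 10.3%. Ifi44 was the 1 gene to pass the filter through KO libraries alone, and such a gene can only enter the test by being higher in KO. With no such filter, all 46 were fitted and 15 were called higher, beside 241 of 15843 genes in all.

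The genes that rose fell into 7 of the 11 roles below, and 5 of the 12 kept their call whichever library was left out: Ifi27l2a, Samhd1, Rtp4, Ifit1 and Rsad2. The other 7 lost it in at least 1 of the 6 such fits. Without WT library 1, 7 of 41 tested effector genes were called, all higher, beside 203 of 10283 genes, of which 96 were higher. Without KO library 3, 7 of 41 were called, all higher, beside 158 of 10346 genes, of which 82 were higher. With every library 357 genes in all were called, so calls over all genes also became fewer in these fits. In bulk RNA, more cells with a transcript and more transcript per cell cannot be told apart.

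**Figure D2:**
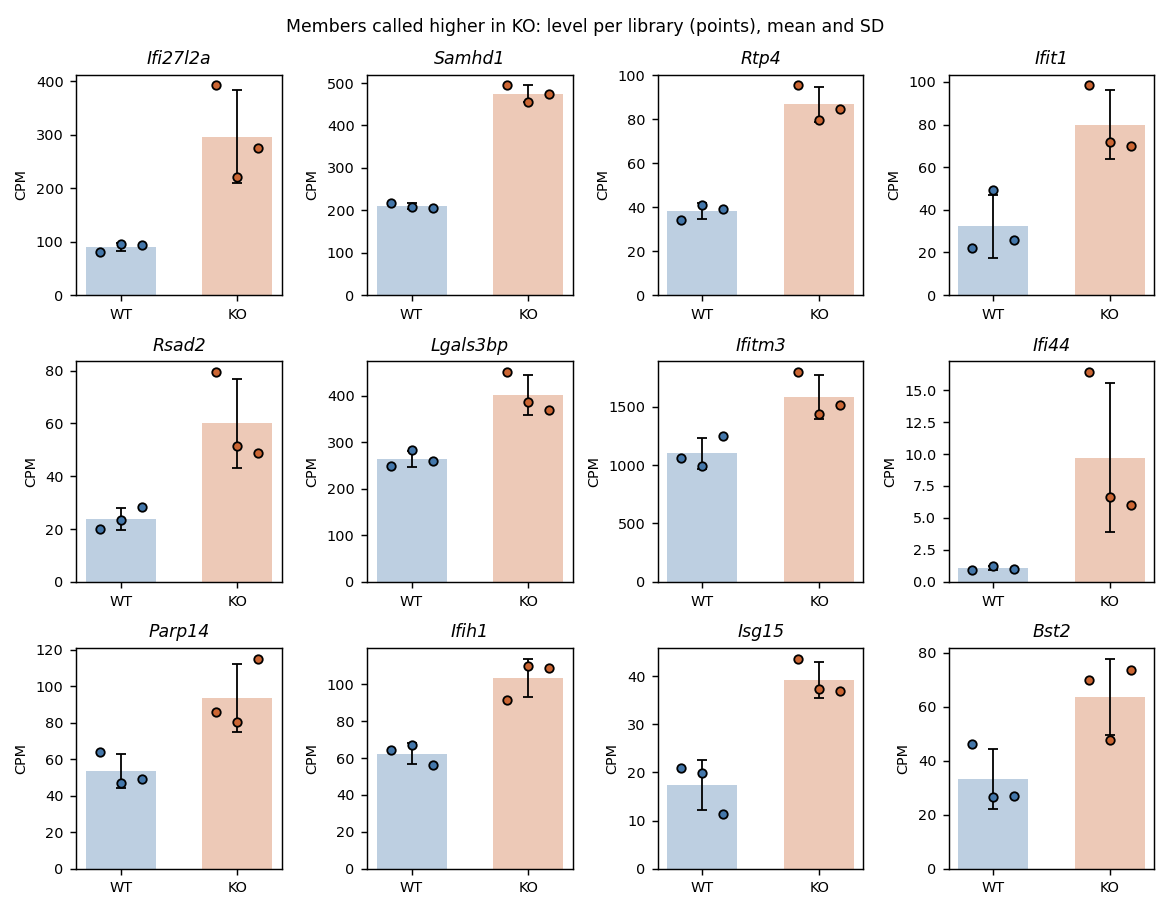
Each panel is 1 of the 12 genes called higher in KO, with CPM on the vertical axis. Points are libraries 1 to 3 from left to right, bars are means and lines are SD (n = 3). In every panel the lowest KO library stands above the highest WT library, by a narrow margin in Bst2 (47.5 against 46.1 CPM).

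Of 3 tested genes of nucleotide metabolism 2 rose. Samhd1 encodes a phosphohydrolase that breaks down the deoxynucleotides a virus needs for reverse transcription. Its level was 217, 207 and 205 CPM in WT and 495, 456 and 474 CPM in KO, each given for libraries 1 to 3 in order. The gap between the groups was far wider than the spread within them, and the log2 fold change was 1.18 ± 0.12 (SE; adjusted p = 2.23e-07, edgeR). Rsad2 encodes viperin, which makes a chain-terminating nucleotide. Rsad2 stood at 20.0, 23.3 and 28.3 CPM in WT and at 79.5, 51.6 and 49.0 CPM in KO, with KO library 1 well above the others. Its log2 fold change was 1.33 ± 0.27 (adjusted p = 0.00271, edgeR). Cmpk2, a mitochondrial nucleotide kinase gene next to Rsad2, read 48.0, 29.2 and 32.3 CPM in WT and 68.8, 58.8 and 50.1 CPM in KO. Its groups did not overlap, but WT library 1 came close to KO library 3, and it did not pass (log2 fold change 0.70 ± 0.25, adjusted p = 0.136, edgeR).

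The IFIT proteins bind RNA with foreign ends and hold it back from translation. Ifit1 read 21.9, 49.1 and 25.8 CPM in WT and 98.5, 71.6 and 69.9 CPM in KO. The groups did not overlap, WT library 2 stood above the other WT libraries, and KO library 1 was the highest. Ifit1 rose by 1.30 ± 0.27 on the log2 scale (adjusted p = 0.00261, edgeR). Ifit2 read 26.2, 35.1 and 20.4 CPM in WT and 41.1, 54.2 and 58.9 CPM in KO, with a log2 difference of 0.91 ± 0.28 (adjusted p = 0.0617, edgeR). Ifit3 read 39.9, 19.9 and 36.7 CPM in WT and 53.9, 56.8 and 51.2 CPM in KO, with a log2 difference of 0.75 ± 0.27 (adjusted p = 0.133, edgeR). Neither passed by edgeR, although neither pair of groups overlapped. Ifit3b had between 6 and 13 counts in every library and was not tested. Reads that fit both Ifit3 and Ifit3b could be lost or split in counting, so the levels of both are uncertain.

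ISG15 is released from cells and is also joined to proteins. Isg15 read 20.9, 19.9 and 11.4 CPM in WT and 43.6, 37.3 and 36.9 CPM in KO. The KO libraries lay close together, and WT library 3 was the lowest. Its log2 fold change was 1.17 ± 0.31 (adjusted p = 0.0315, edgeR), a call kept only when WT library 2 was the one left out and reaching an adjusted p of 0.146 otherwise. Uba7 encodes the activating enzyme for ISG15 and Herc6 the mouse ligase. Both were tested without a call, at log2 fold changes of 0.91 ± 0.37 and 0.62 ± 0.30 (adjusted p = 0.213 and 0.313, edgeR). Usp18 encodes the protease that removes ISG15 and also damps the interferon receptor. Usp18 read 34.7, 16.9 and 25.3 CPM in WT and 40.0, 19.9 and 26.4 CPM in KO, so the groups overlapped. Its log2 fold change was 0.17, with an approximate 95% interval from -0.51 to 0.86.

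Among the sensors of nucleic acid, Ifih1, which encodes the RNA sensor MDA5, was the 1 of 6 tested that passed. Ifih1 read 64.2, 66.9 and 56.1 CPM in WT and 91.3, 110 and 109 CPM in KO. Every KO library was above every WT library, and the log2 fold change was 0.73 ± 0.19 (adjusted p = 0.0257, edgeR). Of the 6 leave-one-out fits 4 lost that call, those without WT library 1, WT library 3, KO library 2 and KO library 3, with adjusted p reaching 0.148. Ddx58, which encodes RIG-I, had a log2 fold change of 0.56 ± 0.26 and Zbp1, a sensor of Z-form nucleic acid, 0.51 ± 0.43 (adjusted p = 0.287 and 0.64, edgeR). Dhx58, a relative of both RNA sensors, had 3 to 19 counts per library and was not tested.

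Ifi203, Ifi204 and Ifi205 belong to a family of DNA-binding proteins, and they are near neighbours in the genome. Ifi205 read 532, 695 and 553 CPM in WT and 673, 592 and 776 CPM in KO, and Ifi203 read 244, 283 and 263 in WT and 351, 283 and 292 CPM in KO. Both overlapped between the groups, and their log2 fold changes were 0.20 ± 0.13 and 0.23 ± 0.13. Ifi204 was at 0.32 ± 0.14, and its groups did not overlap (195 to 216 CPM in WT, 228 to 286 CPM in KO). None of the 3 passed (adjusted p of 0.496, 0.439 and 0.241, edgeR), and their intervals reached no further than 0.60. Since these genes are similar in sequence, how their reads were shared is not known.

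The oligoadenylate synthetases make a messenger that switches on RNase L, which cuts RNA. Oasl2 read 29.0, 32.6 and 17.4 CPM in WT and 63.1, 39.4 and 50.1 CPM in KO. The groups were separate, and the log2 fold change of 0.94 ± 0.29 did not pass by edgeR (adjusted p = 0.0617). Oas2 had 12, 0 and 15 counts in the WT libraries against 25, 15 and 38 in KO, and WT library 3 and KO library 2 held 15 each, at 7.45 and 7.67 CPM. Its log2 fold change was 1.66 ± 0.71 (adjusted p = 0.233, edgeR). Oas1b had 11, 24 and 5 counts in the WT libraries against 8, 9 and 10 in KO, within the WT range (log2 fold change -0.34 ± 0.70, adjusted p = 0.878). Oas3 and Oasl1 had 0 to 6 counts in each library. Oas1a had 0, 12 and 8 counts in the WT libraries against 0, 2 and 0 counts in KO. It was not tested, and the ratio of its summed counts, KO over WT, was 0.113 with an exact 95% counting interval from 0.0128 to 0.466.

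Mx proteins are GTPases that trap viral capsids. Mx2 had 10, 12 and 37 counts in the WT libraries against 79, 37 and 42 in KO, or 4.75, 5.08 and 18.4 CPM against 40.5, 18.9 and 23.1 CPM. WT library 3 nearly reached KO library 2. The log2 fold change of 1.56 ± 0.46 just missed the threshold by edgeR (adjusted p = 0.0544), while DESeq2 and limma-voom called it (adjusted p = 0.0474 and 0.0394). Mx1 had 6, 1 and 0 counts in the WT libraries against 7, 9 and 10 in KO and was not tested. The summed Mx1 counts stood at a ratio of 4.21, with an exact 95% counting interval from 1.78 to 11.5. The RefSeq table of the C57BL/6J genome lists Mx1, Mx2 and Oas1b as transcribed pseudogenes, and a transcript there need not give a working protein, while the strain of these mice is not stated.

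Of the membrane restriction factors, Ifitm3 keeps viruses from fusing with endosomes. Ifitm3 read 1059, 991 and 1248 CPM in WT and 1797, 1438 and 1516 CPM in KO, a log2 fold change of 0.53 ± 0.11 (adjusted p = 0.00369, edgeR). The groups did not overlap and KO library 1 was the highest, and without WT library 1 the adjusted p was 0.0586. Ifitm3 alone made up 27.7% of the summed WT level of the 46 genes. Bst2 encodes tetherin, which ties budding virus to the cell. Bst2 read 46.1, 26.7 and 26.8 CPM in WT and 69.8, 47.5 and 73.7 CPM in KO. The highest WT and lowest KO libraries almost met, and the log2 fold change was 0.94 ± 0.26 (adjusted p = 0.0412, edgeR), reaching 0.261 in the fits without WT library 2, WT library 3, KO library 1 or KO library 3, which lost the call. Ifitm2 overlapped between the groups, at a log2 fold change of 0.16 ± 0.19. Ifitm1 had 0 to 10 counts per library and was not tested.

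Parp14, Parp9 and Dtx3l sit side by side and encode ADP-ribosyltransferases and their partner ubiquitin ligase. Parp14 read 64.2, 47.0 and 49.1 CPM in WT and 85.7, 80.3 and 115 CPM in KO, with KO library 3 the highest. The rise of 0.81 ± 0.21 on the log2 scale passed (adjusted p = 0.0254, edgeR), but the call did not survive leaving out WT library 2, WT library 3 or KO library 3, when the adjusted p reached 0.259. Parp9 was at 0.73 ± 0.27 and Dtx3l at 0.47 ± 0.25 (adjusted p = 0.146 and 0.361, edgeR). Parp9 did not overlap between groups, while Dtx3l did, with WT library 2 at 82.6 CPM.

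Of the remaining 9 effectors 4 rose. Ifi27l2a, a small membrane protein gene, read 80.8, 94.8 and 94.3 CPM in WT and 393, 221 and 275 CPM in KO. The lowest KO library held more than any WT library, and KO library 1 was far above the others. Its log2 fold change of 1.72 ± 0.17 had the smallest adjusted p of the effector genes (9.65e-08, edgeR). Its neighbour and relative Ifi27 read 229, 280 and 205 CPM in WT and 227, 232 and 244 CPM in KO. All KO values of Ifi27 lay inside the WT range, and the approximate 95% interval of its log2 fold change ran from -0.31 to 0.27, against 1.36 to 2.07 for Ifi27l2a.

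Rtp4, a receptor chaperone that also hinders flaviviruses, read 34.2, 41.1 and 39.2 CPM in WT and 95.5, 79.8 and 84.7 CPM in KO. Both groups were tight, and Rtp4 rose by 1.18 ± 0.22 on the log2 scale (adjusted p = 0.000809, edgeR). Lgals3bp encodes a secreted glycoprotein that binds galectins. Lgals3bp read 250, 283 and 259 CPM in WT and 452, 386 and 370 CPM in KO, a log2 fold change of 0.61 ± 0.13 (adjusted p = 0.00367, edgeR). Without WT library 1 its adjusted p was 0.0557.

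Ifi44, a cytoplasmic protein gene of the response, had the largest fitted change of the 39 genes and the fewest counts of the 12 called. It held 2, 3 and 2 counts in the WT libraries against 32, 13 and 11 in KO. The ratio of summed counts was 9.06, with an exact 95% counting interval from 4.12 to 23.6. The fitted log2 fold change was 3.10 ± 0.80 (adjusted p = 0.023, edgeR), and it stayed called only in the fit without KO library 2. Under limma-voom the Ifi44 adjusted p was 0.129, and DESeq2 gave it no adjusted p.

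Ifi35 read 24.2, 16.9 and 16.9 CPM in WT and 44.1, 30.2 and 34.7 CPM in KO without passing (log2 fold change 0.91 ± 0.31, adjusted p = 0.111, edgeR). Xaf1, an antagonist of inhibitors of apoptosis, was at 1.11 ± 0.42, and Sp100, a nuclear body protein gene, at 0.47 ± 0.18 (adjusted p = 0.167 and 0.173, edgeR). Helz2 was at 0.17 ± 0.30.

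The kinase gene Eif2ak2 stood apart in direction. Its product PKR senses double-stranded RNA and halts translation. Eif2ak2 read 20.4, 20.7 and 27.8 CPM in WT and 15.9, 15.3 and 13.2 CPM in KO. It was the 1 tested effector gene with every KO library below every WT library, but the log2 fold change of -0.63 ± 0.37 did not pass (adjusted p = 0.445, edgeR). The promoter window of Eif2ak2 held 2 overlapping matches of the response element core, after the start. Adar, which edits double-stranded RNA, was at 0.36 ± 0.23 and overlapped. The ubiquitin ligase genes Trim21 and Trim25 were at 0.35 ± 0.45 and 0.30 ± 0.22, also without a call. The groups overlapped in Trim21 and not in Trim25.

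**Figure D3:**
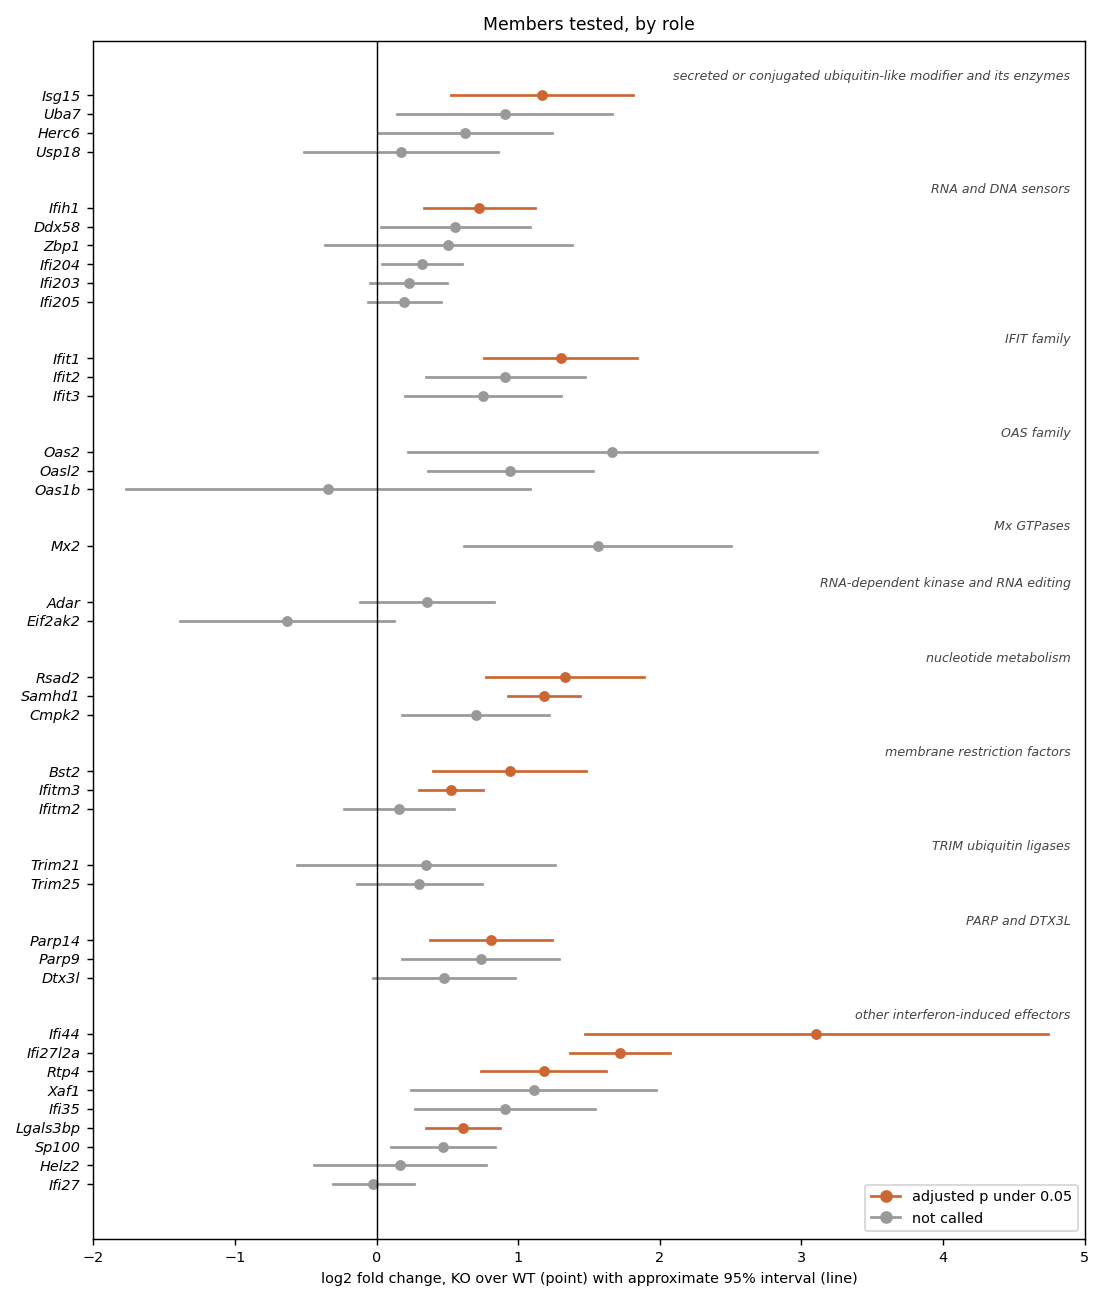
The horizontal axis is log2 of the KO to WT ratio for the 39 tested genes, grouped by role, with approximate 95% intervals as lines. The 12 orange genes passed the test over all genes, and Eif2ak2, Oas1b and Ifi27 are the 3 whose points lie left of 0.

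Position in the genome was described next. The choice took several genes from the same families, whose members are often neighbours, so clusters were built into it. No share of clustered genes was computed for other sets. In the order of protein-coding genes of the RefSeq table, which holds 43 of the effector genes, 21 lay in 8 clusters where the next effector gene was at most 3 genes away. In 5 of the 8 clusters genes with a call lay beside genes without one, and the other 3 (Ifi203, Ifi204 and Ifi205; Oasl1 and Oasl2; Oas2 and Oas3) held no called gene. Rsad2 passed beside Cmpk2, Ifi27l2a beside Ifi27, Parp14 beside Parp9 and Dtx3l, Ifit1 beside Ifit2 and Ifit3, and Ifitm3 beside Ifitm2. Whether neighbours differed from each other was not tested.

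Summed over all 46 genes, the level was 3820, 4023 and 4079 CPM in WT and 6354, 5328 and 5845 CPM in KO. The mean ratio of KO to WT was 1.47, it was 1.48 without Ifitm3, and it was 1.355 without Ifitm3, Samhd1 and Ifi27l2a, the 3 genes of largest difference. These 3 held 25.9%, 14.2% and 11.0% of the summed rise. The lowest KO sum exceeded the highest WT sum. KO library 1 was the highest of the 3 KO libraries in 22 of the 39 tested genes (56.4%) and in 35.1% of all genes tested, and in 9 of the 12 called. The same library held the most haemoglobin and other erythroid RNA, at 151 CPM summed over 7 markers, against 39.1 in KO library 3, 0 in KO library 2 and 1.69 to 7.13 CPM in WT. Of these 7, 2 were at 0 in every library, Slc4a1 among them. Of the 39 genes, 36 were above the WT mean in KO library 1, 33 in KO library 2 and 37 in KO library 3. The median log2 ratios were 0.71, 0.55 and 0.67 in that order. The share of all genes above the WT mean was not counted. Over all genes the median log2 ratio to the WT mean was -0.011 in KO library 1, -0.022 in KO library 2 and -0.021 in KO library 3. Without KO library 1, 10 of 41 tested effector genes were called, all higher, beside 272 of 10300 genes in all, of which 123 were higher. The part of erythroid RNA in these results was not tested.

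**Figure D4:**
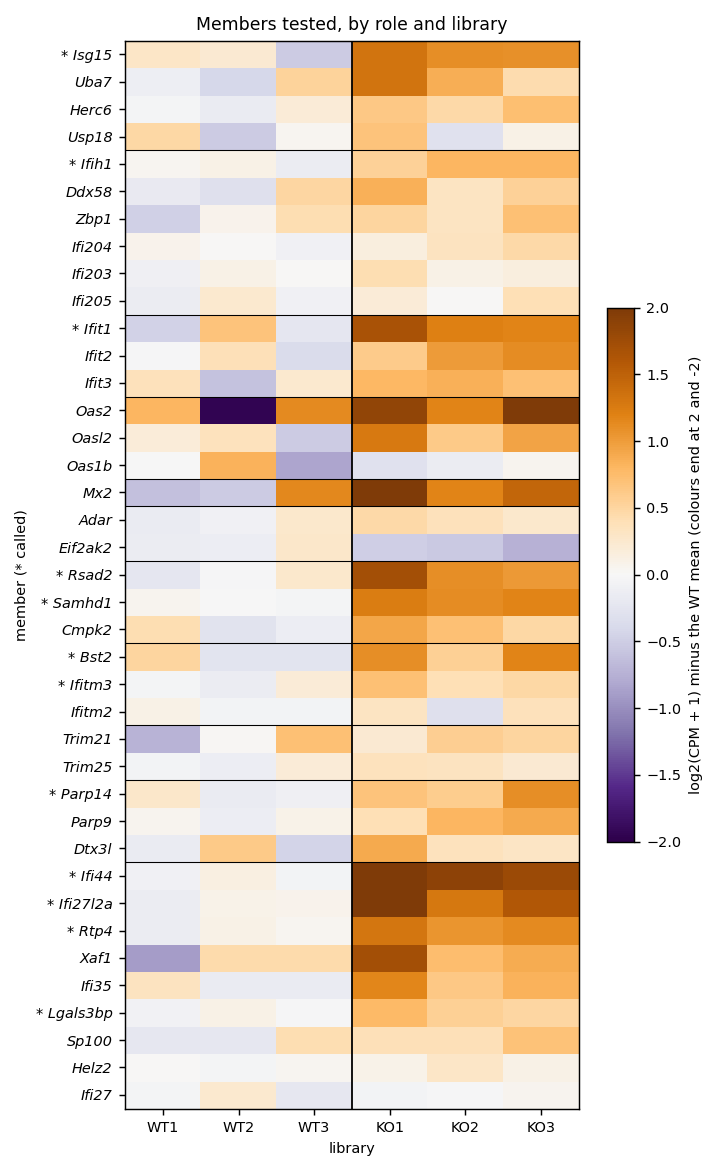
Rows are the 39 tested genes by role and columns are libraries. Colour is log2(CPM + 1) minus the mean of the WT libraries, with colours ending at 2 and -2, and a star marks the 12 called genes. KO columns are mostly orange, KO library 1 is the highest of the 3 KO libraries in 22 rows, and Eif2ak2 is purple in all 3 KO columns.

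Markers of immune cells had few counts, with the limit on counts of 0 that Gapdh sets. Macrophage markers summed to between 3.81 and 8.56 CPM in WT and between 7.19 and 14.3 CPM in KO, with 7 of 14 at 0 in every library, Adgre1 among them. The table held 11 lymphocyte markers, of which 10 were at 0 throughout. Neutrophil markers summed to at most 2.57 CPM in any library, with 4 of 7 at 0. Of the plasmacytoid dendritic markers other than Bst2, 4 of 6 were at 0, Siglech among them, and Tcf4 made nearly all of the sum, which was 622 to 690 CPM in WT and 568 to 621 CPM in KO. Endothelial markers, mostly Tek, summed to 137 to 153 CPM in WT and 140 to 173 CPM in KO. The part of these cells in the rise of the effector genes was not tested.

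The rest of the pathway was read from lists of other genes. All 21 interferon ligand genes listed, Ifnb1 and Ifng among them, were at 0 counts in all 6 libraries, below a floor of 1.27 to 1.65 CPM. That floor covers counting error only, and a count of 0 is weak evidence of absence here, as Gapdh shows. Reads shared between similar ligand genes could also be lost in counting. Of 8 tested genes for receptors and JAK kinases 0 were called by edgeR, DESeq2 or limma-voom, and 0 had an unadjusted p under 0.05. The subunits of the type I receptor, Ifnar1 and Ifnar2, had log2 fold changes of -0.21 ± 0.27 and -0.07 ± 0.16. Among STATs and IRFs, Irf1, Irf7 and Irf9 rose by 0.78 ± 0.14, 1.46 ± 0.25 and 0.80 ± 0.21 (3 of 8 tested; adjusted p = 0.000797, 0.000283 and 0.0291, edgeR), and Stat2 was at 0.68 ± 0.26 (adjusted p = 0.161, edgeR).

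Of 16 tested adaptors, receptors and kinases of nucleic acid sensing 1 passed. This was Zc3hav1, the zinc finger antiviral protein gene, at 0.75 ± 0.19 (adjusted p = 0.0183, edgeR). Tmem173, which encodes STING, was at -0.03 ± 0.28 and Mb21d1, which encodes cGAS, at 0.52 ± 0.47. Socs2, of 18 tested negative regulators, rose by 1.02 ± 0.24 (adjusted p = 0.00978, edgeR), while Socs1 was at -0.54 ± 0.37 and Socs3 at -0.28 ± 0.14 without a call. Of 38 other interferon-induced genes tested, 5 were higher and 1 was lower. Trim30a rose by 1.01 ± 0.16 and its relative Trim30d by 0.996 ± 0.18, and the immunity-related GTPase genes Iigp1 and Igtp by 0.87 ± 0.16 and 0.89 ± 0.20. Ly6e rose by 0.72 ± 0.14, and the lysosomal reductase gene Ifi30 fell by 1.14 ± 0.30. The median log2 fold change over those 38 genes was 0.33. Of the 11 calls in these lists, 6 were made whichever library was left out, those of Irf1, Irf7, Iigp1, Trim30a, Trim30d and Ly6e. Those of Irf9, Zc3hav1, Socs2, Igtp and Ifi30 were lost in 3 or 4 of the 6 fits (WT library 1 or 3 or KO library 1 or 3 for Irf9 and Zc3hav1, WT library 1 or 3 or KO library 3 for Socs2, WT library 1 or 2 or KO library 1 for Igtp, and WT library 2 or 3 or KO library 3 for Ifi30), with adjusted p up to 0.249.

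**Figure D5:**
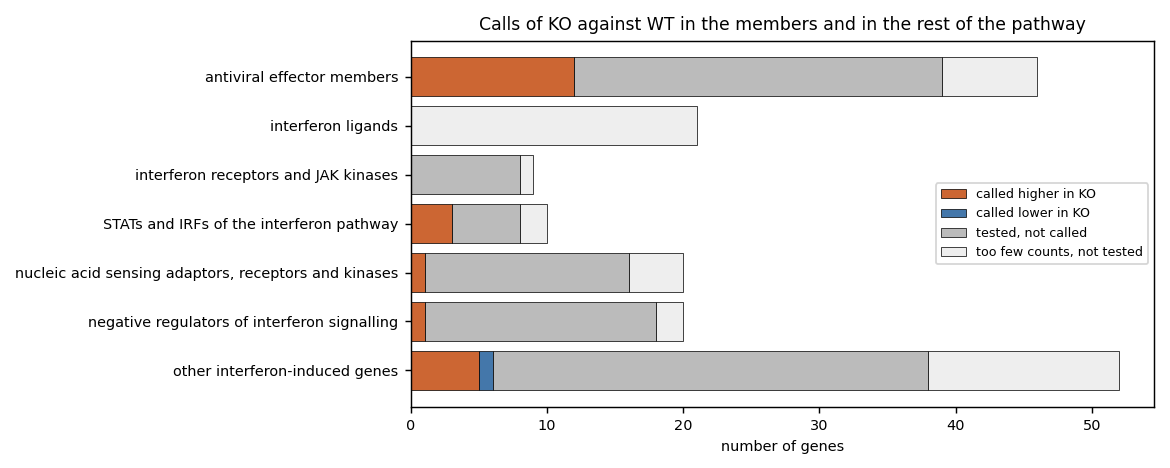
Bars give the number of genes in each list, split by the result of KO against WT at an adjusted p of 0.05. Calls were made in the effector genes (12 of 46) and in every list of the pathway except the 21 ligands, which had no counts, and the receptors and JAK kinases.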

How the data were processed

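RNA-seq had 3 WT and 3 KO libraries, and groups and library numbers came from the sample labels. RNA was poly(A) selected, per the labels' protocols. The submitters' processing notes list HISAT2 2.2.1 and HTSeq 0.9.1 without giving their settings, so use of strand and of shared reads stays unstated. The table holds raw read counts per gene, as deposited by the authors. The bisulfite pools were not used here, because the build of their regions is not stated.

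Genes passed filterByExpr (minimum count 10, minimum total 15), and 9943 remained. The test was the quasi-likelihood one of edgeR 4.0.16 (R 4.3.3, limma 3.58.1) with TMM factors, KO against WT, and p-values were adjusted by Benjamini-Hochberg over all genes with a threshold of 0.05. SE and approximate 95% intervals follow from the F statistic. CPM use effective library sizes. The script was tested on simulated data. Alternatives were RLE and upper quartile factors, 2 other filters, DESeq2 1.42.0, limma-voom, a replicate block and leaving out each library.

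The genes and lists were chosen with earlier results of these data known. Of the lists, Sting1, Cgas, Ifi207 and Trac match no row. Values in every library are given for called genes, the 6 uncalled ones of smallest adjusted p, the 4 of highest WT level and those of negative log2 fold change, and others were added after their values were seen. Replicate libraries differed by a chi-square of 4.05 to 7.45 per degree of freedom, so none were merged.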

Additional observations from a re-analysis of the deposited data

How the results depend on the processing

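The median log2 fold change of the tested effector genes lay between 0.62 and 0.72 under the other normalizations, filters and tests, and between 0.58 and 0.73 when 1 library was left out. The number called was 12 to 15 under the former and 7 to 12 under the latter, with 0 called lower in any fit. Over all genes 335 to 501 were called under the former and 158 to 370 with 1 library left out. In the other pathway lists 7 to 12 were called with 1 library left out. The sign changed in such fits for Usp18 (-0.14 to 0.44, with -0.14 without KO library 1 and -0.064 without WT library 2), for Oas1b (-0.71 to 0.28, the highest without WT library 2) and for Ifi27 (-0.13 to 0.11, with 0.11 without WT library 2 and 0.00082 without KO library 1). None of the 3 passed in any of these fits.

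Mx2, Oasl2 and Ifit2 passed with no filter on low counts, under DESeq2 (adjusted p = 0.0474, 0.0499 and 0.047) and with the replicate block (0.0123, 0.0298 and 0.033). Same-numbered libraries correlated at -0.00024 to 0.0203 in their deviations from the group means, and WT library 1 correlated best with KO library 3 (0.0389). Such values from 3 libraries per group cannot exclude a pairing by library number, and the labels do not state one. With the replicate block 15 effector genes were called, all higher, beside 501 genes in all, of which 251 were higher. Depth limits the genes below the filter, which needs about 4.98 CPM in 3 libraries.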
